A study of Homo sapiens with 8 samples.

Results

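Of the 67196 HoxC5 peaks called in PC-3 cells that overexpressed HoxC5, 27705 (41.2%) were gained distal HoxC5-Pbx4 sites without the AP-1 word, and these sites are described here. They were selected on the peak lists themselves. A site is a HoxC5 peak of the overexpressing cells on chromosomes 1 to 22 or X that overlapped no endogenous HoxC5 peak, overlapped a Pbx4 peak by at least 1 bp, had its summit over 1 kb from every protein-coding transcription start site (TSS), and held no TGACTCA, the word bound by AP-1, on either strand within 50 bp of the summit. Of 67169 peaks on these chromosomes, 65217 overlapped no endogenous peak, 43870 of those overlapped a Pbx4 peak, and 38905 of those were distal. The other 11200 of the 38905 held the AP-1 word. No motif search was part of the choice beyond this 1 word.

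PC-3 cells are a long-established line from a human prostate cancer. HoxC5 was immunoprecipitated with the antibody HPA026794 from control PC-3 cells in 2 libraries (endogenous replicates 1 and 2, with 2525 and 170 peaks) and from cells with HoxC5 overexpression in 1 library, and Pbx4 with the antibody HPA049859 from cells with Pbx4 overexpression in 1 library of 153620 peaks. Both proteins were Flag-tagged and, by the study's methods, delivered in lentiviral vectors whose names carry the CMV promoter, so their levels are not set by their own genes. HoxC5 and Pbx4 were thus profiled in separate cultures, and a shared site was not shown to be bound by both proteins in the same cells. Each overexpression had 1 library, so peak numbers and folds are given without a test between conditions, and tests below compare sites within these libraries. The depth of each library is unknown, since the lists carry no read totals. Nothing in the labels says that the endogenous replicates came from separate cultures.

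Hox proteins such as HoxC5 bind DNA through a homeodomain that on its own reads short words around TAAT. With Pbx proteins they bind longer joint words made of TGAT and AT with 2 letters between them, and Meis proteins, further partners of this kind, read TGACAG. AP-1 is a dimer of Fos and Jun proteins that reads TGACTCA and occupies many enhancers of epithelial cancer cells.

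The DNA under the sites is shown first, because the results turn on its words. The 5 sites of highest HoxC5 −log10 q with a joint Hox-Pbx word (TGATTGAT or TGATTAAT, ATCAATCA or ATTAATCA on the other strand) are printed with that word in capitals. Each run is the plus strand of hg19 from 50 bp before to 50 bp after the HoxC5 summit, 5′ to 3′, and is named by the gene with the nearest protein-coding TSS. Windows that touched a coding exon or a UTR were passed over.
FAM43A site: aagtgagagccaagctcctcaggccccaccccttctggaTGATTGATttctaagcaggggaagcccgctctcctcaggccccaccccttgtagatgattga
FOXP1 site: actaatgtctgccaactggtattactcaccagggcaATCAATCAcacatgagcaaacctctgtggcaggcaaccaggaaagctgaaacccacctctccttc
TNFSF4 site: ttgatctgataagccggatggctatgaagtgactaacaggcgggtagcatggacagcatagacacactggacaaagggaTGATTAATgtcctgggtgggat
GAP43 site: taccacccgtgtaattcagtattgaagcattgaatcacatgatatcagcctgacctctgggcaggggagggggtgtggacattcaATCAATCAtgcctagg
CDCP1 site: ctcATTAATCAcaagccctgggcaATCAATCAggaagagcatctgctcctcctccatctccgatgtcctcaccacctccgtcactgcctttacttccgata
They lie at chr3:194489983-194490083, chr3:70874071-70874171, chr1:173238711-173238811, chr3:115519511-115519611 and chr3:45175325-45175425. The FAM43A site was in an intron of a lncRNA gene and the CDCP1 site in an intron of a protein-coding gene, and the other 3 were between genes. HoxC5 fold enrichment was 33.4 at FAM43A, 30.9 at FOXP1, 23.3 at TNFSF4, 24.7 at GAP43 and 27.8 at CDCP1, against Pbx4 folds of 16.6, 15.7, 16.3, 14.7 and 14.4. The CDCP1 window held both joint words. The FOXP1, TNFSF4 and GAP43 windows also held a near match to the AP-1 word, 1 letter away from TGACTCA. The GAP43 and CDCP1 sites had TGACTCA itself within 150 bp of the summit, outside the printed window.

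The 3 sites of highest −log10 q with the Meis word TGACAG and neither TGATTGAT nor TGATTAAT follow, with the Meis word of either strand in capitals, since they show the partner word at strong peaks. The TP53BP2 and EGF windows also held a near match to the AP-1 word, and the TNFSF18 site had TGACTCA itself within 150 bp of the summit.
TP53BP2 site: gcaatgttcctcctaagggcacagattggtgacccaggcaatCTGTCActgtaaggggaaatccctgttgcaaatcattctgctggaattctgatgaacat
EGF site: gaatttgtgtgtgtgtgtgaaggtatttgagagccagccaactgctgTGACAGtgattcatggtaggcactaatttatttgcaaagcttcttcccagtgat
TNFSF18 site: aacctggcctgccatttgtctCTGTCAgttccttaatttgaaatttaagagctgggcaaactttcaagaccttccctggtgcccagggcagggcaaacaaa
They lie at chr1:224076003-224076103, chr4:110842624-110842724 and chr1:172939446-172939546. At the EGF site, in an intron, the Meis word was followed at once by TGATTCAT, a spelling of the joint word that also holds a near match to the AP-1 word.

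A site of high −log10 q without TGATTGAT, TGATTAAT or the Meis word but with near matches to the AP-1 word, 1 letter away from TGACTCA (in capitals, overlapping matches run together), shows what the label of the class leaves in.
TGM2 site: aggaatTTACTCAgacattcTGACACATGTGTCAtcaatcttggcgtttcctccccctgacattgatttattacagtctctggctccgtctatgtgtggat
It also holds TGATTTAT, a further spelling of the joint word, left in lower case. It lies at chr20:36812722-36812822, between genes, and ranked 5 by −log10 q in the whole HoxC5 list.

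The name "without AP-1" held for the exact word only. A word 1 letter from TGACTCA stood within 50 bp of the summit at 13739 of the 27705 sites (49.6%, 95% Clopper-Pearson interval 49.0 to 50.2%), against 7564 (27.3%) of the windows of equal length 1 kb to the right. The same share was 38.5% at gained distal HoxC5-Pbx4 sites with the AP-1 word and 30.8% at the 11491 gained distal HoxC5 sites without Pbx4 and without the AP-1 word. The exact word itself began to appear just outside the window used for the choice. Its far end lay over 50 and up to 100 bp from the summit at 4740 sites (17.1%) and over 100 and up to 150 bp at 1788 (6.45%), against 500 sites (1.80%) with the word in the flanking window. The sites are therefore called sites without the exact word below.

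The near matches were unequal. Of 19 such words, 16 were in more summit windows than flanks and 1, TGAGGCA, in fewer (two-sided exact McNemar test over all 7-letter words, adjusted p under 0.05, which called 34.9% of all 7-letter words higher). TGAATCA was in 3424 summit windows and 500 flanks, a ratio of 6.85. TGACTAA was in 2249 and 316, a ratio of 7.12, which ranked 3 among 8137 words of 7 letters. TGAGTAA was in 1841 and 452 windows and TGACACA in 1329 and 425. The word in fewer windows and the 2 that were not called, TGAGACA (773 and 816 windows) and the word TGAGCCA (1306 and 1405), differ from TGACTCA at position 3 when read on the other strand.

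Across all words of 8 letters, 19.9% were in more summit windows than flanks. Of the 100 with the lowest p among them, 51 resembled the AP-1 word, meaning at most 1 mismatch over an overlap of at least 6 letters, against 2.37% of the 28856 words tested. All 10 of lowest p were of this kind. The first was ATGAATCA, in 1763 summit windows and 169 flanks, followed by ATGATTCA, GTGATTCA, ATGACTAA, ATTAGTCA, GTGACTAA, GTGAATCA, CTTAGTCA, GAATCATC and ATTACTCA, with ratios of 6.43 to 12.5. ATGAATCA reads TGATTCAT on the other strand, so the first of these words is also of the joint Hox-Pbx form. The first words that did not resemble AP-1 were AGGAAATG (855 and 268 windows), ATTTCCTG and ACTTCCTG, which hold GGAA on one strand, the core read by ETS factors. The 10 words of lowest p in the other direction were A-rich: AAAAATTA (144 and 1238 windows), AAAAAAAA, AAAAAAAT, TAAAAATA, AAAATTAG, TACAAAAA, AAAAATAC, ATACAAAA, AAAAAATT and CAAAAAAA. Several of these adjoin each other in the A-rich stretch of Alu repeats, and the median GC content was 45.5% in summit windows and 41.6% in flanks. The part of base composition and of repeats in these differences was not tested.

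The main Hox-Pbx words were rare and raised. TGATTGAT was in 260 summit windows (0.938%) and 97 flanks (0.350%), and TGATTAAT in 318 (1.15%) and 121 (0.437%), with adjusted p of 4.68e-18 and 3.73e-21 over the 26 chosen words (two-sided exact McNemar test). At least 1 of them was at 575 sites (2.08%, against 0.780% of flanks). TGATTTAT, a further joint word, was in 274 summit windows and 194 flanks (exact test, adjusted p = 0.000276). Of 15 spellings of that form that were tested, 7 were in more summit windows than flanks, 3 in fewer and 5 were not called. Of all 28856 words of 8 letters tested, 19.9% were in more and 4073 words in fewer. TGATTCAT, 1 of the 7, also resembles the AP-1 word. The ratio of summit to flank windows was 10.4 for TGATTCAT, 3.16 for TGATGAAT, 3.07 for TGATGCAT and 2.57 for TGATGGAT, and it was 0.575 for TGATCAAT, 0.522 for TGATCTAT and 0.380 for TGATATAT, the 3 in fewer summit windows. No spelling other than TGATTCAT was at more than 1.45% of the sites.

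Among words of the partners, the Meis word TGACAG was in 2623 summit windows (9.47%) and 1802 flanks (exact test, adjusted p = 1.31e-37). TGATTGAC, a joint Pbx-Meis word, was in 57 summit windows and 61 flanks and was not called (exact test, adjusted p = 0.783). Its end can run into TGACTCA, which the rule kept out of summit windows but not out of flanks. The summit count of TGATTGAC is therefore partly set by the choice, and the size of that part was not tested. TAATGA, a homeodomain word, was in 10.0% and 6.45%. TAATGA was at 11.4% of sites that held a near match and at 8.66% of those that held none (flanks 6.26% and 6.63%). TAATTA, the palindromic homeodomain word, was in fewer summit windows than flanks, 2.26% against 4.10%.

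**Figure D1:**
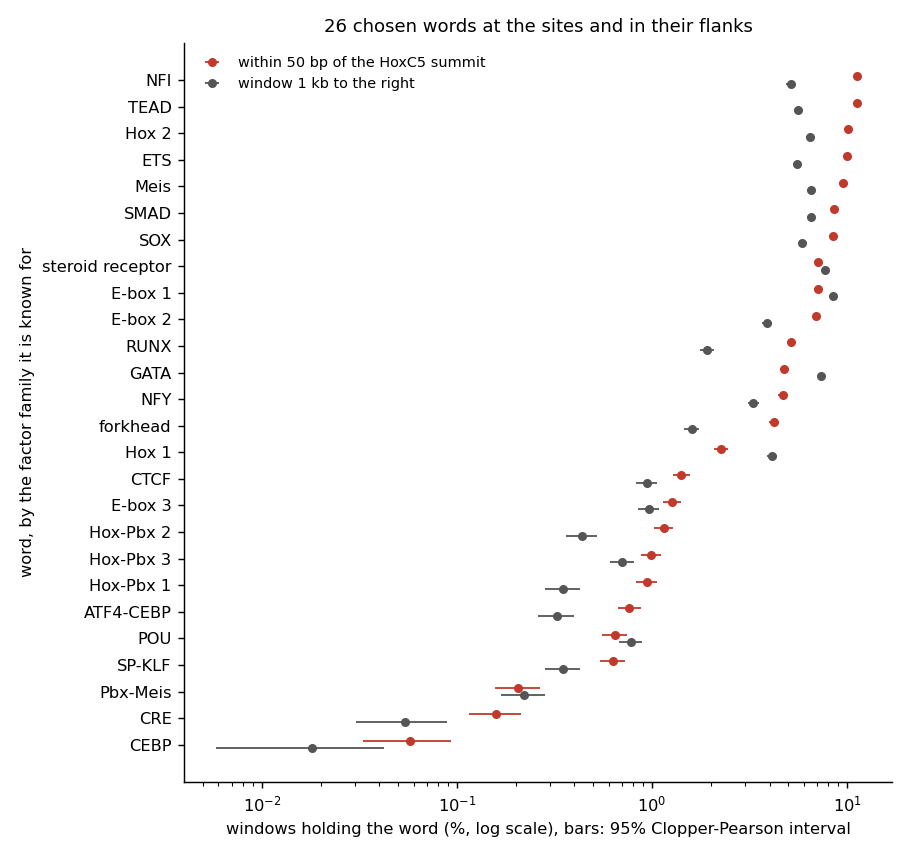
Share of the 27705 sites with each of 26 chosen words (log scale), within 50 bp of the HoxC5 summit (red) and in a window of equal length 1 kb to the right (grey), with 95% Clopper-Pearson bars. Hox-Pbx 1, 2 and 3 are TGATTGAT, TGATTAAT and TGATTTAT, Hox 1 is TAATTA while Hox 2 is TAATGA, and E-box 1 is CAGGTG, with CAGCTG as E-box 2 and CACGTG as E-box 3. NFI and TEAD words led at 11.3% and 11.2%, and the joint Hox-Pbx words lay near 1%.

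Words of other enhancer factors were raised as well, and their shares are not comparable with those of the Hox-Pbx words where the lengths differ, since shorter words occur more often. The ratio of summit to flank windows was 2.68 for TGATTGAT and 2.63 for TGATTAAT, beside 2.20 for NFI, 1.80 for ETS, 2.69 for RUNX and 2.63 for forkhead. The NFI word TTGGCA was in 11.3% of summit windows and 5.14% of flanks, the TEAD word GGAATG in 11.2 and 5.62%, and the ETS word GGAAGT in 9.93 and 5.52%. The RUNX word TGTGGTT was in 5.17 and 1.92% and the forkhead word GTAAACA in 4.19 and 1.60%. CAGCTG, an E-box read by basic helix-loop-helix proteins, was in 6.96 and 3.87%, and the SOX word ACAATG in 8.42 and 5.90%. CAGACA, read by SMAD proteins, was in 8.58 and 6.53%. The NFY word GCCAAT, which shares 5 letters with the NFI word, was in 4.69 and 3.30%. TGATGCAA (ATF4-CEBP), TGACGTCA (CRE), TTGCGCAA (CEBP), AGGGGGC (CTCF), CCCCGCCC (SP-KLF) and the E-box CACGTG were also higher, with summit shares of 0.0578 to 1.41%. Words lower at summits beside TAATTA were the GATA word AGATAA (4.76 and 7.31%), the E-box CAGGTG (7.07 and 8.51%) and the steroid receptor word AGAACA (7.08 and 7.73%). The POU word ATGCAAAT was not called (exact test, adjusted p = 0.0705), but it was called lower without endogenous replicate 1 (adjusted p = 0.0475). In all, 20 of the 26 words were higher and 4 lower. By length, 10 of 14 words of 6 letters were higher and 4 lower, where 45.6% and 30.1% of all 6-letter words were. Of 9 words of 8 letters 7 were higher, where 19.9% of all 8-letter words were. The counts of chosen words were adjusted over the 26 and the shares over all words of 1 length. Adjusted over all 8-letter words, TTGCGCAA, 1 of the 7, was not called (exact McNemar test, adjusted p = 0.0716). Compared at the summits with their own letters in reverse order, the steroid receptor word, the E-box CAGGTG and the GATA word were more frequent than the reversed word. A word and its reversed form were not matched for frequency elsewhere in the genome. This comparison therefore cannot decide whether these words are low at summits.

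The words were also raised away from AP-1 words. At the 10387 sites with no near match within 50 bp and no exact word within 150 bp, joint Hox-Pbx words were at 2.17% (flanks 0.838%), the Meis word at 9.84% (6.69%), TEAD at 12.2% (5.81%), RUNX at 6.03% (2.01%), forkhead at 4.59% (1.72%) and NFI at 12.6% (5.54%). These values were not tested apart.

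The words also differed in where they stood. Words were placed by their midpoint in bins of 10 bp around the HoxC5 summit. A joint Hox-Pbx word lay in the bin at the summit at 0.397% of the sites. The share was 0.105% in the bin 50 bp to the left of the summit and 0.0686% in the bin 150 bp to its left. Around the summit of the Pbx4 peak of the same sites the central value was 0.180%, and the highest bin, 10 bp to the right, held 0.253%. The Meis word had 1.31% in the central bin of Pbx4 summits and 1.13% in that of HoxC5 summits. Near matches to the AP-1 word stood at 7.78% at the centre of HoxC5 summits and 7.25% at the centre of Pbx4 summits. TGACTCA itself was at 1.20% in the central bin of Pbx4 summits, since the rule left it out only around HoxC5 summits. By whole windows, TGATTGAT was in 0.689% of windows around Pbx4 summits and 0.938% around HoxC5 summits, TGATTAAT in 0.996 and 1.15%, and TGATTTAT, in the other direction, in 1.17 and 0.989%. TGACAG was in 10.0 and 9.47%, the Pbx-Meis word TGATTGAC in 0.390 and 0.206%, and GTAAACA in 4.64 and 4.19%. The rule kept TGACTCA, into which TGATTGAC can run, out of HoxC5 windows but not out of all Pbx4 windows. The lower share of TGATTGAC around HoxC5 summits is thus partly set by the choice. These shares come from the same sites and are given without a test.

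**Figure D2:**
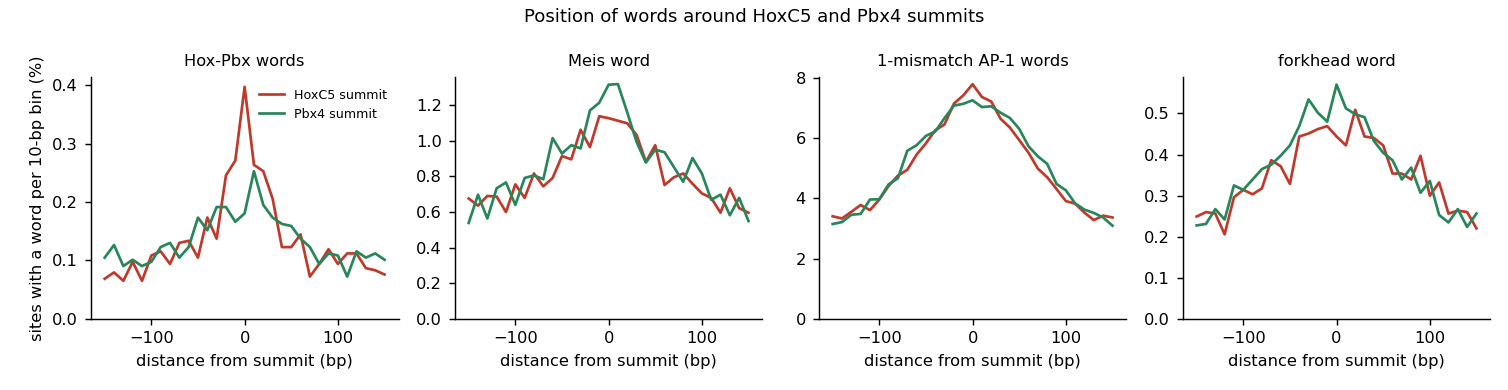
Share of the 27705 sites with a word in each 10-bp bin, by distance from the HoxC5 summit (red) and from the Pbx4 summit (green), for the joint Hox-Pbx words, the Meis word, near matches to the AP-1 word and the forkhead word. Joint words were sharpest at the HoxC5 summit, with a highest bin of 0.397% against 0.253% around the Pbx4 summit.

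The joint words were most frequent at the strongest HoxC5 peaks. With the sites split into 10 classes of near-equal size by HoxC5 −log10 q, they were at 1.01% (95% interval 0.673 to 1.46%) of the 2770 weakest and 4.87% (4.10 to 5.74%) of the 2771 strongest, while the flanks stayed at 0.614 and 0.722%. Near matches to the AP-1 word went from 41.9 to 59.4%, TAATGA from 215 to 389 sites, NFI from 9.93 to 13.6% and the Meis word from 8.99 to 12.5%. For RUNX the values were 4.95 and 5.81%, with intervals that overlapped (4.17 to 5.82% and 4.97 to 6.75%), and for TEAD 10.4 and 11.3%, also with intervals that overlapped. Split by −log10 q of the Pbx4 peak, the Meis word went from 7.65 to 12.7%, the near matches from 39.6 to 55.0% and the forkhead word from 3.14 to 5.12%. Joint words were at 1.99% and 2.71% there, with 95% intervals that overlapped. Median HoxC5 fold was 8.03 at the 575 sites with a joint word, 6.76 at the 2623 with the Meis word and 6.40 at all sites. The strength of a peak was one of the measures the authors' threshold acted on, so these shares are given as a description.

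**Figure D3:**
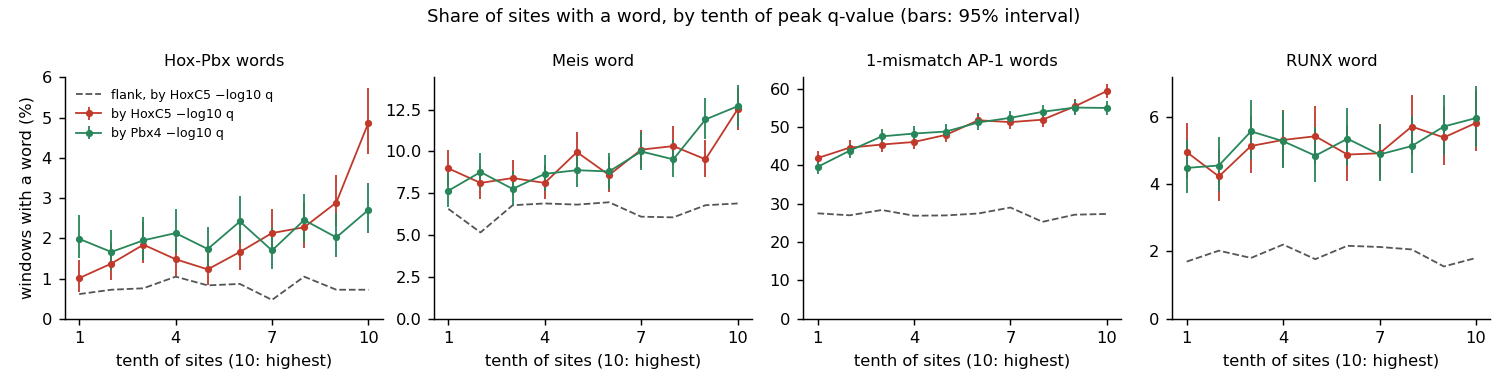
Share of sites with a word in 10 equal classes of the sites ordered by −log10 q of the HoxC5 peak (red) or of the Pbx4 peak (green), class 10 being the highest, with 95% Clopper-Pearson bars, and the flank of the HoxC5 classes (dashed). Joint Hox-Pbx words reached 4.87% in the strongest HoxC5 class, and RUNX words stood at 4.95 and 5.81% in the lowest and highest.

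As peaks, the sites were of moderate height. The median HoxC5 width was 236 bp (quartiles 175 and 329), the median fold enrichment over local background 6.40 (quartiles 5.03 and 8.50, highest 50.9) and the median −log10 q 11.3. For the overlapping Pbx4 peak, width was 436 bp and fold 8.55 at the median. The HoxC5 summit lay inside the Pbx4 peak at 26441 sites (95.4%), and the median distance between the summits was 53 bp. At the 1264 sites with the HoxC5 summit outside the Pbx4 peak, near matches to the AP-1 word were at 27.1%, beside 28.2% of flanks, and the Meis word at 5.06%, beside 6.01% of flanks. The ETS word was at 8.78%, beside 5.54%, with 95% intervals apart. NFI was at 7.20 and 4.67%, RUNX at 3.09 and 1.90% and TGATTGAT or TGATTAAT at 0.949 and 0.237%, with intervals that overlapped. An endogenous peak lay within 1 kb of 254 sites (0.917%). The value was 0.884% for sites with the exact AP-1 word and 0.862% for gained distal sites without Pbx4. The rule left out peaks that overlapped an endogenous peak and the endogenous lists were short, so a low share was set by the choice. Because 1867 sites (6.74%) shared their Pbx4 peak with another site, and neighbours can share sequence, the windows are not fully independent and p-values over them are too small to that degree.

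The sites were set beside 2 other classes, gained distal HoxC5-Pbx4 sites with the exact AP-1 word and gained distal HoxC5 sites without Pbx4 and without that word. Median HoxC5 fold was 6.97 in the first and 5.69 in the second, and median Pbx4 fold in the first was 9.19. Summits of the 2 proteins were a median of 38 bp apart in the first, where 99.1% of HoxC5 summits were inside the Pbx4 peak and 1.42% of sites shared a Pbx4 peak. Membership used these lists, so the values are descriptive.

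**Figure D4:**
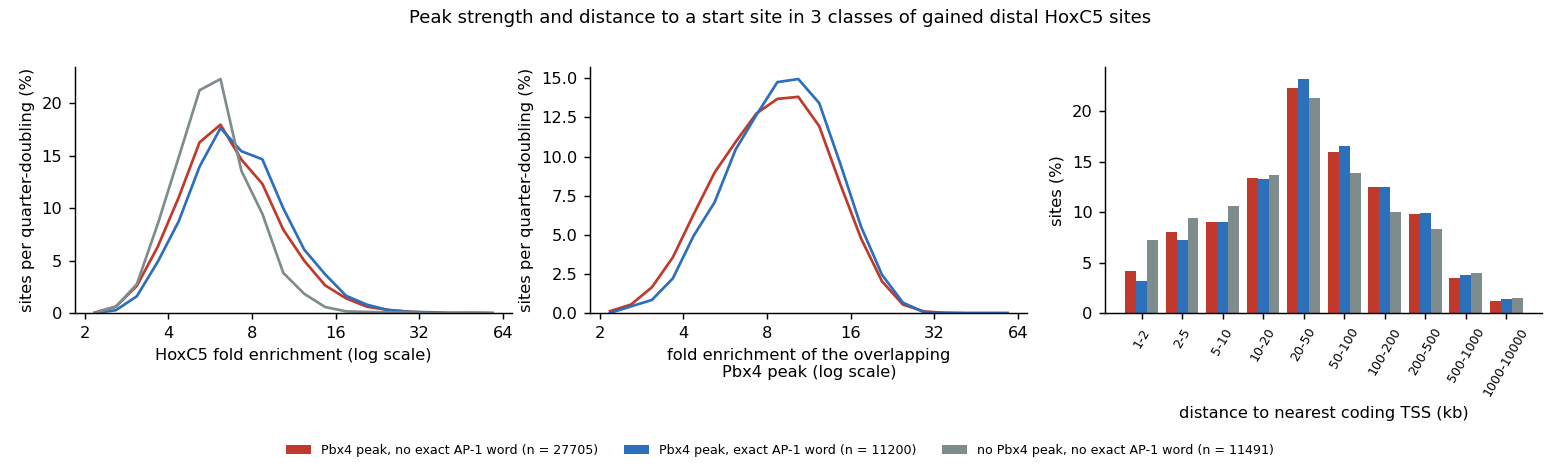
HoxC5 fold enrichment, fold of the overlapping Pbx4 peak (both on log scales, lines join the shares of sites per fold class) and distance to the nearest protein-coding TSS (bars) for sites without the exact AP-1 word (red), with it (blue) and without Pbx4 (grey). Median HoxC5 folds were 6.40, 6.97 and 5.69.

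Against sites with the exact AP-1 word, 12 of the 26 words were more frequent and 4 less frequent (two-sided Fisher's exact test, adjusted over both comparisons). Of all words, 31.8% of those with 6 letters and 1.95% of those with 8 letters were more frequent, and 7.89% and 2.87% less frequent. The 12 and 4 pool words of 6 to 8 letters and were adjusted over the 26 words in both comparisons. The shares were adjusted over all words of 1 length, so counts and shares do not stand at 1 threshold. The largest differences were the NFI word with 11.3 against 8.56% (2.73 points, exact test, adjusted p = 3.73e-15), the forkhead word with 4.19 against 2.61% (1.59 points, adjusted p = 6.94e-14) and the RUNX word with 5.17 against 3.63% (1.54 points, adjusted p = 1.28e-10). The Meis word differed by 1.14 points (9.47 against 8.33%, exact test, adjusted p = 0.000843) and TGATTAAT by 0.335 points (adjusted p = 0.00557), but neither passed when windows with the word only at the summit or only in the flank were compared (adjusted p = 0.0648 and 0.218) or when sites with a near match were left out (0.0934 and 0.136). TGATTGAT was at 0.938 against 0.795% and was not called (exact test, adjusted p = 0.231). TGATTTAT was at 0.989 against 0.607% (exact test, adjusted p = 0.000432) and was called under every alternative tried for this comparison. The E-boxes CAGCTG and CAGGTG, the SMAD word CAGACA and TGATTGAC were less frequent, by 1.15 points for CAGCTG (6.96 against 8.12%, exact test, adjusted p = 0.00023). Each of these 4 words shares its first or last letters with an end of TGACTCA and can overlap it. Every window of the class with the AP-1 word holds TGACTCA by rule, and no window of the sites does. These lower shares are therefore partly set by the choice of classes. TGACTCA also takes up letters in each window of its class and leaves fewer places there for other words. Higher shares at the sites, among them that of the Meis word, are thus partly set by the choice as well. The size of either part was not tested. Without endogenous replicate 1, TAATTA and CACGTG were no longer called (adjusted p = 0.0528 and 0.0519 by Fisher's exact test, main 0.0398 and 0.0405).

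Against sites without Pbx4, 16 words were more frequent and 4 less frequent, where 36.3% and 33.1% of all 6-letter words and 6.86% and 11.2% of all 8-letter words were (two-sided Fisher's exact test). Here too the counts pool lengths and the shares were adjusted over more words, so they do not stand at 1 threshold. TEAD led with 11.2 against 6.91% (4.33 points, exact test, adjusted p = 9.38e-40), followed by NFI with 11.3 against 7.70% (adjusted p = 1.4e-26) and SOX with 8.42 against 5.35% (adjusted p = 3.39e-26). The Meis word was at 9.47 against 7.11% (exact test, adjusted p = 1.05e-13), RUNX at 5.17 against 3.20% and forkhead at 4.19 against 2.31%. TGATTAAT was at 1.15 against 0.627% (exact test, adjusted p = 2.77e-06) and was not called by windows with the word only at the summit or only in the flank (adjusted p = 0.215). TGATTGAT was at 0.938 against 0.783% and was not called (exact test, adjusted p = 0.178), so a difference between the sites and those without Pbx4 was not detectable for this joint word at these numbers. With sites holding a near match left out of both classes it was called (0.326 points higher, exact test, adjusted p = 0.0211). TGATTTAT was at 0.989 against 0.470% (exact test, adjusted p = 2.98e-07). The largest difference in either direction was the CTCF word AGGGGGC, at 1.41% against 7.13% (exact test, adjusted p = 5.78e-171). CTCF is the factor of insulators and loop anchors. The SP-KLF word CCCCGCCC (0.628 against 1.90%), CAGGTG and CACGTG were also less frequent, and the median GC content of the windows was 45.5% against 49.5%.

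In the genome, 14059 sites (50.7%) were inside protein-coding genes, which cover 45.8% of the assembled bases. By the GENCODE annotation 46.2% (95% interval 45.7 to 46.8%) were in introns of protein-coding genes, 13.8% in introns of lncRNA genes, 33.1% between genes, 1.10% in coding exons and 1.66% in UTRs. Sites with the AP-1 word had 45.9% in introns of protein-coding genes, with an overlapping interval (45.0 to 46.8%), and sites without Pbx4 had 40.5% (39.6 to 41.4%). The median distance to a TSS was 37.6 kb (quartiles 12.3 and 109), with 12.2% within 5 kb and 43.0% over 50 kb. At the limit of the rule, a site by SYNE2 was kept at 1002 bp from a TSS, with a HoxC5 fold of 3.81, and peaks by TMTC2 and ALCAM were left out at 1000 and 999 bp, with folds of 5.74 and 4.95. Site density was lowest on chromosome X, 4.69 per Mb, and highest on chromosome 21, 12.8 per Mb, with 9.77 over all. The whole list of overexpressed HoxC5 peaks was also least dense on X, 12.1 per Mb. Sites made up 38.6% of these peaks on X, and from 22.4% on chromosome 19 to 46.7% on chromosome 13. The share of gained distal HoxC5-Pbx4 sites without the exact word varied little among chromosomes, from 68.8% on X to 73.8% on 21.

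Sites among the 10 of highest HoxC5 −log10 q had the nearest TSS of TP53BP2, TGM2, GRAMD2B, CD83, EGF, PACS1, FAM43A, FOXP1 and TNFSF18. TGM2 encodes a transglutaminase, EGF the epidermal growth factor and FOXP1 a forkhead factor. HoxC5 folds ran from 16.4 at TNFSF18 to 50.9 at TGM2. The highest Pbx4 fold among them was 16.6 at FAM43A. By −log10 q of the Pbx4 peak these 10 sites ranked between 45 (TGM2) and 9538 (EGF) of the 27705. Over the 10 classes of HoxC5 −log10 q, median Pbx4 fold was 7.52 in the lowest and 10.4 in the highest. Of the 10, 8 held a near match to the AP-1 word, 3 the Meis word and 2 TGATTGAT.

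The nearest TSS is a position and not a shown target. Sites had 7877 genes as nearest, with a median of 2 sites per gene, and 597 genes had 10 or more. MYC, the proto-oncogene transcription factor, was nearest to 43 sites, at 1.18 to 1000 kb, with a median HoxC5 fold of 6.08, and 21 of them held a near match to the AP-1 word. NRP1, a receptor of semaphorins and VEGF, was nearest to 40. ADGRL3, an adhesion receptor, EXT1, of heparan sulfate synthesis, RAD51B, of DNA repair, and the transcription factors RUNX1 and SOX9 were each nearest to 38, and ANK3, a membrane adaptor, and ZNF608 to 37. LPP, NR2F1 and PARD3 followed with 34 each. Beside these, the same genes were nearest to 7 to 23 sites with the exact AP-1 word, 19 for MYC and 23 for SOX9.

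With summits within 10 kb joined, 14798 sites (53.4%) stood alone and 252 groups held 5 or more. The largest had 13 sites over 53.8 kb at chr9:37995034-38048814, with SHB as the most frequent nearest gene. A group of 10 sites over 30.3 kb, chr7:27215080-27245384, lay in the HOXA cluster, most often nearest to HOXA13. Its median HoxC5 fold was 4.34, below the 6.40 of all sites, and 1 of its sites held a near match to the AP-1 word and none a joint Hox-Pbx word.

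Gene families were read by regulatory domains, from 5 kb upstream to 1 kb downstream of the TSS and on to the next domain over at most 1 Mb. Over all 20090 protein-coding genes, 53.1% had a site in the domain, with a median of 1 and 10.3 sites per Mb, and sites made up 43.5% of the overexpressed HoxC5 peaks there. Domains differ in length, and the lists were chosen with earlier results known, so the counts are descriptive. Of 39 HOX genes, 16 had a site, with a median of 0 and 34.0 sites per Mb, and HOXB1 had 8 and HOXA11 and HOXA13 had 6 each. The HOX domains summed to 1.47 Mb, and sites made up 29.8% of the HoxC5 peaks in them, below the 43.5% over all genes. Of 11 TALE cofactors, the genes of Pbx, Meis and related partners, 9 had a site (7.67 per Mb), led by TGIF1 with 22 and by MEIS1 and MEIS2 with 10 each. Of 11 AP-1 genes, 10 had a site (22.1 per Mb), with 17 at JUN, 9 at FOSL2 and 7 at ATF3. Sites made up 40.7% of the HoxC5 peaks in the TALE domains and 35.1% in the AP-1 domains.

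Of 31 TGF-β pathway genes, 27 had a site, with a median of 5 and 17.6 per Mb. INHBA, an activin subunit, had 43, TGFB2, a ligand, 37 and TGFBR2, a receptor, 28. All 15 regulators of epithelial-mesenchymal transition and cadherins had a site, with 28 at CDH2, 24 at GRHL2 and 17 at TWIST1. Of 17 integrins and laminins 16 had one, with 36 at ITGB1 and 16 at ITGB6 (30.1 per Mb). Of 13 genes of YAP, TEAD and their targets 9 had one, with 18 at YAP1, 15 at TEAD1 and 10 each at WWTR1 and CCN2 (26.9 per Mb). Of 20 forkhead genes 16 had one, with 26 at FOXP1, 23 at FOXL1 and 17 at FOXC1 (12.3 per Mb). The 8 telomerase and shelterin genes had the lowest density, 3.72 per Mb, with 3 sites each at TERF2 and POT1 and 1 in the domain of TERT. Sites made up 28.6% of the HoxC5 peaks in the telomerase and shelterin domains. In the other lists of this paragraph they made up 46.25% (forkhead) to 50.6% (YAP and TEAD). The HoxC5 peak upstream of TERT in these cells, chr5:1316363-1316671, overlapped a peak of endogenous replicate 1 but none of replicate 2. It was not among the sites because of that overlap with replicate 1.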

How the data were processed

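The labels give 4 libraries of immunoprecipitated chromatin, used here, and 4 inputs, not used. Reads were mapped by the authors against hg19 using BWA. They dropped reads of low mapping quality and duplicates and called peaks per library with MACS2 at q of at most 0.05. The lowest −log10 q was 2.00 in the list of overexpressed HoxC5 and 1.30 to 1.40 in the other lists, so the lists did not end at the same q, and they were compared as deposited. The MACS2 version and the control of each call are not given in the sources used here. The deposited lists give each peak a fold enrichment (a ratio to local background), a score, and p and q as −log10, all made by the authors. Folds and −log10 q were used as deposited, and −log10 p and the score were not. Lists hold no read totals, so library depth is unknown, and the 95% Clopper-Pearson intervals take in counting error alone.

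Peaks kept their deposited limits. TSSs and gene parts came from GENCODE 44 lifted to GRCh37, and sequence from GRCh37. Words were sought on both strands in windows of 50 bp to either side of a summit, against windows 1 kb to the right, with two-sided exact McNemar tests. Classes were compared with two-sided Fisher's exact tests. P-values were adjusted after Benjamini and Hochberg, and adjusted p under 0.05 was called, over 26 words, over both class comparisons, or over all words of 1 length in at least 20 windows. A site was given the Pbx4 peak it overlaps, or, at the 0.393% of sites with several, the one with most overlap. Sites on chromosome 8 were counted in all tests but not considered for printed sequence. The tests were tested on simulated data.

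The members, words and gene lists were chosen with earlier results of these data known. Named were the 10 sites of highest HoxC5 −log10 q, the 10 genes nearest to most sites (3 tied for place 10), the 3 genes of each list with most sites, all 26 words, and the 10 words of 8 letters of lowest p each way. The search over 7-letter words, the splits by strength, and the exclusion of sites with a near match in the word tests were added after the data were seen. A few items that these rules name are not reported here. Python 3.11.15, numpy 2.4.6, pandas 2.3.3, scipy 1.17.1, pysam 0.24.0 and matplotlib 3.10.9 were used.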

Additional observations from a re-analysis of the deposited data

How the results depend on the processing

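No paired analysis was possible because the comparisons are between sites of single libraries and the 2 endogenous replicates enter only as lists that remove peaks. The number of sites was 27705, and 20806 to 32802 under the other thresholds, overlaps, distances and AP-1 windows, except that leaving out sites with a near match to the AP-1 word gave 13966. Without either endogenous replicate it was 27722 to 28597. Against the flank, 20 words were higher and 4 lower. Leaving out a replicate gave 20 higher and 4 to 5 lower, and 2 were lower without near matches or against the reversed letters (17 of 26 words could be reversed without changing the number of CpGs or giving the same word). Against sites with the AP-1 word, where 12 were higher and 4 lower, windows with the word only at the summit or only in the flank gave 6 higher, 100 bp windows 2 lower, and leaving out a replicate 10 to 12 higher and 4 lower. Against sites without Pbx4, where 16 were higher and 4 lower, such windows gave 10 higher and 2 lower, and leaving out a replicate 16 and 4. Words of 8 letters were higher in 5606 to 5923 cases and lower in 4071 to 4348, beside 5739 and 4073.

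Of single words, 18 values changed sign under 1 alternative. Against the flank, in percentage points, TGATTGAC moved to 0.0433 with 100 bp windows and 0.00361 with a flank at 5 kb, and against their reversed letters AGAACA moved to 1.40, CAGGTG to 3.95 and AGATAA to 0.729. Against sites with the AP-1 word, TAATGA moved to 0.466 and AGAACA to -0.382 points with 100 bp windows. Against sites without Pbx4, CAGCTG moved to 0.137 points at a fold of at least 5, TGACGTCA to 0.00593 and ATGCAAAT to -0.0333 over 5 kb from a TSS, and TAATTA to 0.150 and TGACGTCA to 0.0388 without near matches. With windows that hold the word only at the summit or only in the flank, as a log2 ratio between the classes, TGACGTCA moved to -1.65 and GGAAGT to -0.020 against sites with the AP-1 word, and TGATTGAC to -0.017, TGACGTCA to 0.14, CAGCTG to 0.13 and ATGCAAAT to -0.056 against those without Pbx4. The cause was not tested. A further 7 values against the flank and 37 between classes kept their direction and lost the call, and 5 and 11 gained one. Unknown library depth and 1 library per overexpression limit all of these.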
